A study of Homo sapiens with 8 samples.

Results

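The 10 genes described here encode the enzymes of de novo purine synthesis and of the branches that turn its product into the adenine and guanine nucleotides: PRPS1, PPAT, GART, PFAS, PAICS, ADSL, ATIC, IMPDH2, GMPS and ADSS (now named ADSS2). They were chosen by name from the textbook pathway and are 10 of the 60291 gene identifiers counted. RNA was sequenced from A549, an established human lung adenocarcinoma cell line with a loss-of-function KEAP1 mutation, in which the transcription factor NRF2 (gene NFE2L2) is constitutively active. Each well of 250000 cells was transfected with 5 nmol of siRNA: 3 duplexes target NFE2L2 and were used once each, and 2 non-targeting duplexes were used 2 times each, while a mock well had the lipid reagent alone. RNA was taken after 48 h, so that 3 NFE2L2 siRNA libraries, 4 control siRNA libraries and 1 mock library were available, all from this cell line. Control libraries 1 and 2 carried control duplex 1, and libraries 3 and 4 control duplex 2. The p-values measure the spread between these transfections, which in the NFE2L2 group also differ in duplex. The 4 control transfections were treated as independent, although they carried 2 duplexes.

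Purine synthesis builds the purine ring atom by atom on phosphoribosyl pyrophosphate (PRPP), a sugar phosphate made from ribose 5-phosphate, and ends in inosine monophosphate (IMP). It draws glutamine, glycine, aspartate and formyl groups carried by folate, and dividing cells depend on it for RNA, DNA and cofactors. NRF2, which KEAP1 holds down in unstressed cells, is known for driving genes of glutathione synthesis, NADPH production and the pentose phosphate pathway, the source of ribose 5-phosphate.

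PPAT and PAICS are neighbours that face away from each other on chromosome 4, and the DNA between their starts is shown because any element in it lies upstream of both. The annotated starts are 126 bp apart in GRCh37, with PPAT on the minus strand (chr4:57259528-57301781) and PAICS on the plus strand (chr4:57301907-57330744). The 125 bases between them, at chr4:57301782-57301906 (GRCh37, plus strand), have a GC content of 76.0% and 15 CpG dinucleotides. Capitals mark matches to TGANNNNGC, the core letters of the antioxidant response element to which NRF2 binds, and both matches read TGANNNNGC on the minus strand.
PPAT-PAICS intergenic DNA: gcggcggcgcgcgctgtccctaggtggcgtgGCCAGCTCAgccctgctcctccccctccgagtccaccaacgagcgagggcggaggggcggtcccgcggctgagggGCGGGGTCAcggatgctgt
The match that begins at base 107 also fits the stricter TGACNNNGC. Such short matches were common: in RefSeq promoter windows of GRCh38.p14, each from 250 bases before to 50 after a gene start, 47.1% of 27303 genes held TGANNNNGC on either strand and 16.1% held TGACNNNGC. Of the 8 purine genes with a window (ADSL and IMPDH2 had none), PPAT, PAICS and ADSS held TGANNNNGC, against 5 of 7 established NRF2 target genes with a window.

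The E-box CACGTG, to which MYC and related factors bind, was also looked for, since MYC is a known regulator of nucleotide synthesis genes. It was present in PPAT, PAICS and ATIC, 3 of the 8 genes, in 0 of the 7 NRF2 targets and in 8.78% of all genes with a window. The sites of PPAT and ATIC are given with 10 bases on each side, in the direction of each gene and with CACGTG in capitals, beside a TGANNNNGC match of the NRF2 target ME1 (malic enzyme) in capitals for comparison.
PPAT, chr4:56435782-56435807 (GRCh38.p14, minus strand): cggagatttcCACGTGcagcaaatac
ATIC, chr2:215312003-215312028 (GRCh38.p14, plus strand): gccggcgggcCACGTGataagcccgg
ATIC, chr2:215312078-215312103 (GRCh38.p14, plus strand): cctacctgcgCACGTGgtgccgccgc
ME1, chr6:83431170-83431198 (GRCh38.p14, minus strand): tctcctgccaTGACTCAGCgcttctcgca
The PPAT site lies in a PAICS window too, where CACGTG begins 41 bases after the start of PAICS that the window uses. A match of letters is a description and does not show that a factor binds there.

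The libraries held 35525141 to 41645410 reads on genes, and each purine gene had between 1177 and 9938 reads in every library, far above the limit of 10 reads used to admit genes to the test. Levels are given as CPM, counts scaled to 1000000 gene reads per library with TMM factors over the 8 libraries, and differences as the log2 fold change of NFE2L2 siRNA over control siRNA with its standard error (SE). Tests used edgeR's two-sided quasi-likelihood fit over 17811 genes with Benjamini-Hochberg adjustment, and a gene was called at an adjusted p under 0.01. NFE2L2 itself was at 32.9, 52.0 and 29.7 CPM with the 3 duplexes against 106.7 to 117.1 CPM in the control libraries, and all 9 NRF2 reference targets fell, with log2 fold changes from −3.45 for OSGIN1 to −1.24 for ME1. The epithelial keratins KRT7, KRT8 and KRT18 were abundant in every library while EPCAM was low (142 to 427 reads). All 6 epithelial markers had a log2 fold change above 0, with a median of 0.50, and edgeR called 0 of them and DESeq2 2, with 3 at an unadjusted p under 0.05. KRT19 (0.88, adjusted p = 0.0201) and CDH1, E-cadherin (0.74, adjusted p = 0.0455), were named after their values were seen. Both were higher in all NFE2L2 libraries than in all controls, a separation seen for 11.9% of all tested genes. CDH1 also varied among control libraries 1 to 4, at 193.1, 145.4, 111.9 and 100.5 CPM, and was at 104.3 CPM in the mock library. In an edgeR fit with the control duplexes as separate groups, duplex 2 differed from duplex 1 by −0.67 for CDH1 (SE 0.146, adjusted p = 0.277). The part of the epithelial markers in the levels of the purine genes was not tested. The leukocyte and endothelial markers PTPRC, CD3E and VWF had 0 to 5 reads.

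None of the 10 purine genes was called at the threshold, while 2.76% of all tested genes were. Counts were 0 of 10 with edgeR and 0 with limma-voom, where 2.61% of all genes were called, and 1 with DESeq2, where PAICS passed in a background of 7.70%. At an adjusted p under 0.05 DESeq2 gave 2, PFAS and PAICS, against 13.2% of all genes. At an unadjusted p under 0.05 in edgeR the number was 4 (PAICS, PFAS, ADSL and IMPDH2), against 25.0% of all genes. The log2 fold change was below 0 for 9 of the 10, ATIC being the exception, against 48.7% of all tested genes, and its median was −0.22 over the 10 and 0.01 over all tested genes. For 4 of the 10 (PFAS, PAICS, ADSL and GMPS) the highest NFE2L2 siRNA library was below the lowest control library, a separation seen for 11.4% of all genes. The opposite separation was seen for 0 of the 10 and 11.9% of all genes. In bulk RNA, fewer cells of a kind and less RNA per cell cannot be told apart.

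**Figure D1:**
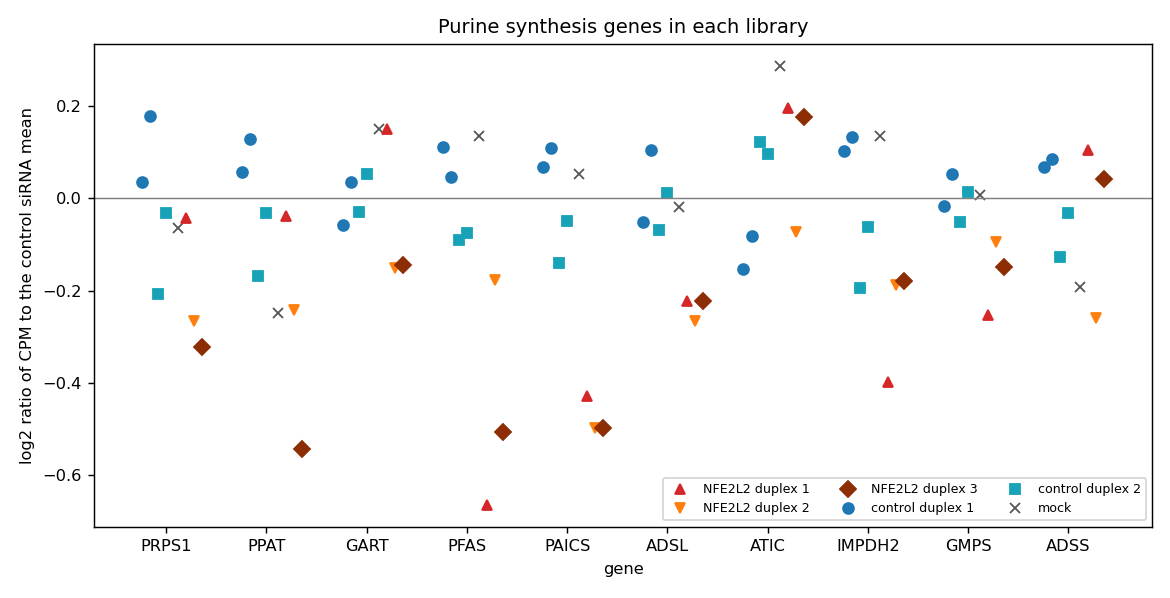
Each point is 1 library: the horizontal axis gives the gene, in pathway order, and the vertical axis the log2 ratio of its CPM to the mean of the 4 control siRNA libraries (0, grey line). The NFE2L2 siRNA points of PAICS lie between −0.50 and −0.43, below all control points, and those of ATIC, GART and ADSS fall on both sides of 0.

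PRPS1 (chrX:106871658-106895223 in GRCh37, plus strand), phosphoribosyl pyrophosphate synthetase, makes the PRPP on which the ring is assembled. Its level was 81.1, 69.4 and 66.8 CPM with NFE2L2 duplexes 1, 2 and 3, 85.6, 94.4, 72.3 and 81.6 CPM in control libraries 1 to 4 and 79.8 CPM in the mock library. The duplex 1 library lay within the control range and the others below it. This gave a log2 fold change of −0.21 (SE 0.114, 95% interval −0.46 to 0.05, adjusted p = 0.298).

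PPAT, the amidophosphoribosyltransferase that commits PRPP to purine synthesis, had 77.1, 67.0 and 54.4 CPM with the NFE2L2 duplexes and 82.4, 86.6, 70.5 and 77.5 CPM in the control libraries. The groups overlapped through NFE2L2 duplex 1, and the mock library, at 66.7 CPM, was itself below all 4 control libraries. The log2 fold change was −0.26 (SE 0.128, 95% interval −0.55 to 0.03, adjusted p = 0.241).

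GART (chr21:34876238-34915797, minus strand), a protein with several catalytic domains that act early in the ring, was at 141.5, 114.8 and 115.2 CPM with NFE2L2 siRNA, at 122.5, 130.5, 124.7 and 132.1 CPM with control siRNA and at 141.3 CPM in the mock library. The NFE2L2 libraries lay on both sides of the controls, 1 above all of them and 2 below. The log2 fold change was −0.04 (SE 0.0985, 95% interval −0.26 to 0.18, adjusted p = 0.832), which in percent runs from −16.6% to 13.2%.

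PFAS (chr17:8150936-8173809, plus strand), formylglycinamidine ribonucleotide synthase, which adds a glutamine nitrogen, had 79.9, 111.9 and 89.1 CPM with the NFE2L2 duplexes. The control libraries had 136.7, 130.6, 118.8 and 120.0 CPM and the mock library 138.9 CPM. All NFE2L2 libraries were lower than all controls, with duplex 2 closest to them. Their log2 fold change was −0.43 (SE 0.123, 95% interval −0.71 to −0.16, adjusted p = 0.0595). DESeq2 gave an adjusted p of 0.0217, and without the NFE2L2 duplex 2 library edgeR gave 0.00601, which passed the threshold.

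PAICS, which carries out the carboxylation and the joining of aspartate that follow ring closure of the imidazole, showed the lowest adjusted p of the 10. Its level was 178.4, 170.2 and 169.9 CPM with NFE2L2 duplexes 1, 2 and 3, against 251.7, 258.9, 217.9 and 231.9 CPM in the control libraries and 248.8 CPM in the mock library. The 3 duplexes gave nearly the same level, all below the lowest control. The mean was 172.8 ± 4.81 CPM (SD, n = 3) against 240.1 ± 18.7 CPM (SD, n = 4), and the log2 fold change was −0.47 (SE 0.0905, 95% interval −0.68 to −0.27, adjusted p = 0.0125). In percent this was a difference of −28.0%, with an interval from −37.4% to −17.2%. PAICS was the 1 gene of the 10 that passed an adjusted p of 0.05, a threshold that 8.17% of all genes passed. With DESeq2 its adjusted p was 0.000101, and over the leave-one-out fits the adjusted p ran from 0.0156 to 0.0542 with log2 fold changes from −0.53 to −0.44. It passed 0.01 in edgeR with the mock library among the controls (adjusted p = 0.0042) and with genes admitted at 1 read (0.00613). With control duplex 2 as the sole control its log2 fold change was −0.38 and its adjusted p 0.153, and with the libraries of a control duplex added up, 3 against 2, the adjusted p was 0.145 and 0 of the 10 genes passed 0.05.

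ADSL (chr22:40742465-40786467, plus strand), adenylosuccinate lyase, acts both on the way to IMP and in the branch to AMP. It was at 88.9, 86.2 and 88.8 CPM with NFE2L2 siRNA and at 100.01, 111.4, 98.7 and 104.4 CPM with control siRNA, with 102.2 CPM in the mock library. The NFE2L2 libraries were close to each other and all below the controls. Between the groups the log2 fold change was −0.24 (SE 0.0829, 95% interval −0.42 to −0.05, adjusted p = 0.112). ADSL shares a stretch of its strand with SGSM3, and reads in it that fit both genes were not counted.

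ATIC (chr2:216176679-216214496, plus strand) performs the last formylation and closes the ring to IMP. It was at 40.2, 33.4 and 39.7 CPM with the NFE2L2 duplexes, 31.6, 33.2, 38.3 and 37.6 CPM in the control libraries and 42.9 CPM in the mock library. The groups overlapped, and the mock library was the highest of the 8. Its log2 fold change was 0.10 (SE 0.112, 95% interval −0.15 to 0.36, adjusted p = 0.613), and with control duplex 2 alone it was −0.01.

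In the guanine branch, IMPDH2 (chr3:49061758-49066880, minus strand), the IMP dehydrogenase that turns IMP into xanthosine monophosphate, was at 114.7, 132.7 and 133.6 CPM with NFE2L2 siRNA. Control libraries 1 and 2 had 162.3 and 165.7 CPM, libraries 3 and 4 had 132.1 and 144.7 CPM, and the mock library had 165.9 CPM. The NFE2L2 duplex 2 and 3 libraries overlapped the lower pair of controls, which carried control duplex 2. A log2 fold change of −0.25 resulted (SE 0.108, 95% interval −0.49 to −0.01, adjusted p = 0.182).

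GMPS (chr3:155588439-155661809, plus strand), which aminates xanthosine monophosphate to GMP, had 129.2, 144.1 and 138.7 CPM with NFE2L2 siRNA against 152.0, 159.5, 148.5 and 155.3 CPM with control siRNA and 154.6 CPM in the mock library. The groups did not overlap, though the gap between duplex 2 and the lowest control was small. The log2 fold change was −0.16 (SE 0.082, 95% interval −0.35 to 0.02, adjusted p = 0.247).

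In the adenine branch, ADSS (chr1:244571796-244615211, minus strand), the adenylosuccinate synthase that joins aspartate to IMP, was at 100.2, 78.0 and 95.9 CPM with NFE2L2 siRNA. It was at 97.7, 98.8, 85.3 and 91.2 CPM with control siRNA and at 81.6 CPM in the mock library. The NFE2L2 libraries spanned the whole control range, and the log2 fold change was −0.03 (SE 0.108, 95% interval −0.27 to 0.21, adjusted p = 0.898). Its sign turned with the scaling: with library size alone it was 0.003.

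Taken by library, the summed level of the 10 genes was 1031, 1008 and 992.2 CPM with NFE2L2 duplexes 1, 2 and 3. It was 1222, 1270, 1107 and 1176 CPM in control libraries 1 to 4 and 1223 CPM in the mock library. The sum was therefore lower in every NFE2L2 library than in any other, with control library 3 the nearest. The median log2 ratio of the 10 genes to the control mean was −0.13 with NFE2L2 duplex 1, −0.21 with duplex 2 and −0.20 with duplex 3, and 7, 10 and 8 genes were below the control mean. The gene farthest below differed, being PFAS with duplex 1 (−0.66), PAICS with duplex 2 (−0.50) and PPAT with duplex 3 (−0.54). ATIC was the highest of the 10 in each of them. The mock library had a median of 0.03, with 4 genes above the control range, 4 within it and 2 (PPAT and ADSS) below.

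The control duplexes also gave different levels of these genes, though no difference was called. Control library 3 had 9 of the 10 genes below the control mean and a median of −0.11. In a fit with the control duplexes as separate groups, the log2 difference of duplex 2 from duplex 1 ranged from −0.25 for IMPDH2 to 0.23 for ATIC, and 0 of the 10 genes were called, nor was any of the 17811 tested genes (0.00%). At an unadjusted p under 0.05 edgeR gave 0 of the 10 and 7.26% of all genes. For IMPDH2 the difference between the control duplexes (−0.25, SE 0.117) was about as large as that between NFE2L2 and control siRNA, and for PAICS it was −0.18 (SE 0.0997). In a fit of the 4 control libraries alone, 566 genes (3.28%) passed 0.01 and again none of the 10. There 7 of the 10 had an unadjusted p under 0.05 and 8 were lower with control duplex 2. The matching shares over all genes were not computed for that fit, so these counts cannot be set against a background. IMPDH2 passed 0.05 in that fit with an adjusted p of 0.0465.

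Between genes, levels were compared per length, as CPM per kilobase of the canonical transcript (RPKM), in the control libraries. IMPDH2 was highest at 91.6 ± 9.53 RPKM (SD, n = 4) and lay apart from all others. PRPS1 (40.3 ± 4.42), GART (38.4 ± 1.38), PAICS (37.7 ± 2.93) and ADSS (36.5 ± 2.46) followed and overlapped from each to the next. ADSL (23.8 ± 1.31), PFAS (23.6 ± 1.61), PPAT (21.5 ± 1.87), ATIC (17.8 ± 1.65) and GMPS (17.8 ± 0.546) formed the lower range, again with each overlapping its neighbour. The order rests on the length taken: with the union of all annotated exons PAICS came first at 31.9 RPKM and IMPDH2 next at 29.5.

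**Figure D2:**
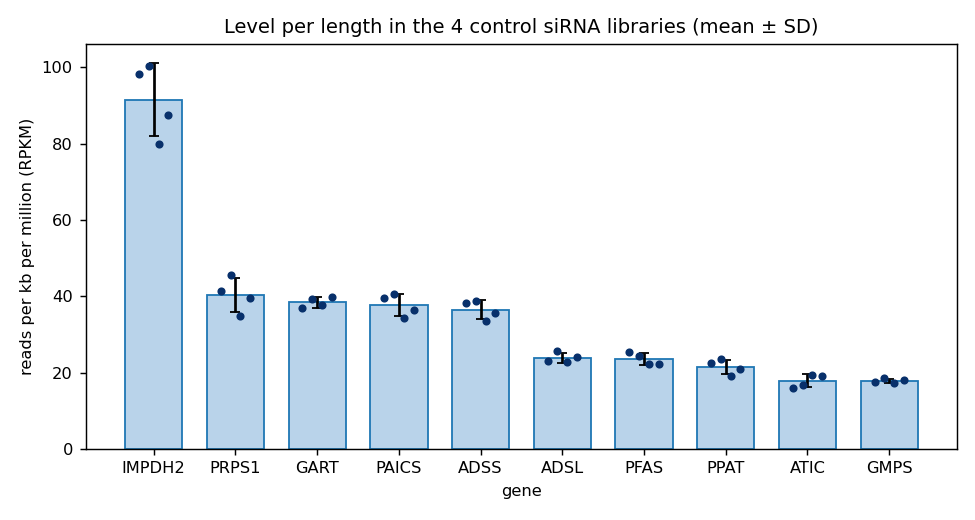
Bars give the mean level of each gene in RPKM (vertical axis, from 0) over the 4 control siRNA libraries, whiskers the SD and dots the libraries. IMPDH2 stands at 91.6 RPKM, and the other 9 genes lie between 17.8 and 40.3 RPKM.

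Whether genes that share a promoter region, or isozymes of a step, moved by different amounts was asked of 3 pairs. The log2 ratio of PPAT to PAICS was −1.61, −1.58, −1.63 and −1.58 in the control libraries and −1.21, −1.34 and −1.64 with NFE2L2 duplexes 1, 2 and 3. The controls agreed closely with each other, whereas 2 NFE2L2 libraries had a higher ratio and 1 did not, and the mock library was lower than all at −1.90. The group means differed by 0.20 (two-sided exact permutation p = 0.286 over 35 divisions, 0.429 adjusted over the 3 pairs). The difference was 0.13 for IMPDH1 to IMPDH2 (exact p = 0.229, adjusted 0.429) and 0.19 for PRPS2 to PRPS1 (exact p = 0.457). With 3 against 4 libraries the smallest p that this test allows is 0.0571.

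Of the isozymes and subunits, PRPS2, the other ubiquitous PRPP synthetase, had a log2 fold change of 0.00 (SE 0.126) with 72.7, 105.2 and 100.1 CPM with NFE2L2 siRNA against 88.6 to 97.1 CPM in the controls. PRPSAP1 and PRPSAP2, which associate with the synthetases, had 0.03 and −0.20, IMPDH1 had −0.11 and ADSSL1, the muscle form of adenylosuccinate synthase, −0.62 (adjusted p = 0.256). None of these 5 was called by edgeR or DESeq2, 0 had an unadjusted p under 0.05, and PRPS1L1, a testis form, had 0 reads in every library.

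Other coding genes that start next to a purine gene were above 0 and not called. SON, an RNA-binding splicing factor whose start is 453 bp from that of GART on the other strand, had a log2 fold change of 0.32 (SE 0.164, adjusted p = 0.263). CTC1, a telomere maintenance gene 440 bp from PFAS, had 0.30 (SE 0.11, adjusted p = 0.122), and its difference from PFAS was not tested. The 12 pseudogenes named after 4 of the purine genes had at most 75 reads in a library, for GMPSP1.

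Genes whose profile over the 8 libraries was closest to that of PAICS were sought among 9779 genes with at least 10 CPM, by the root mean square difference of log2 CPM relative to the control mean. They were CAMKK1, a calmodulin-dependent kinase (0.03, log2 fold change −0.49), ENSG00000170089 (0.05, −0.46) and PRDX6, a peroxiredoxin (0.05, −0.47, adjusted p = 0.0183). Among the other purine genes PFAS ranked 386 by this measure, ADSL 520, PPAT 1124 and ATIC 6588 of 9779.

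Of 6 listed genes of ribose phosphate supply, the pathway that feeds PRPS1, 3 fell, against 1.36% of all genes, and the median log2 fold change was −0.71. On the log2 scale transaldolase (TALDO1) fell by 1.54 (adjusted p = 7.38e-05) and 6-phosphogluconate dehydrogenase (PGD) fell by 1.31 (adjusted p = 0.000102). Transketolase (TKT) fell by 1.21 (adjusted p = 0.000414), with an adjusted p of 0.0185 against control duplex 2 alone. PGLS (0.16), RPIA (0.13), the isomerase that makes ribose 5-phosphate, and RPE (−0.21) were not called. PRPS1, which takes up ribose 5-phosphate, had the −0.21 given above, with an interval that ends at −0.46. The difference in fold change between the lists was not tested.

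**Figure D3:**
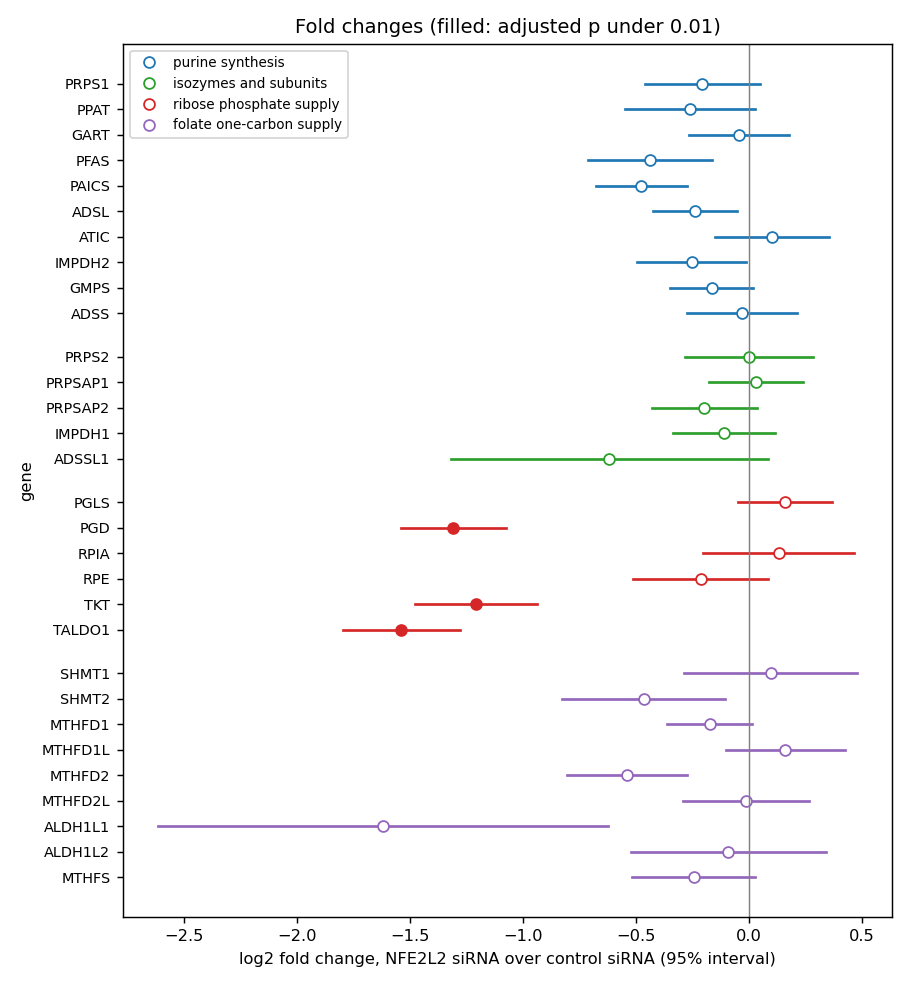
Points give the log2 fold change of NFE2L2 siRNA (3 libraries) over control siRNA (4 libraries) on the horizontal axis, and lines the 95% interval, for the genes named on the vertical axis. The filled points (adjusted p under 0.01) are PGD, TKT and TALDO1, between −1.54 and −1.21, and the purine genes lie between −0.47 and 0.10.

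None of the genes that supply the other inputs was called by edgeR or limma-voom. The counts that follow stand against 2.76% of all genes called by edgeR, 7.70% called by DESeq2 and 25.0% at an unadjusted p under 0.05. Among 9 genes of folate-bound formyl supply 0 were called and 7 were below 0, with a median of −0.17, 3 at an unadjusted p under 0.05 and 1 called by DESeq2. MTHFD2, the mitochondrial folate dehydrogenase (−0.54, adjusted p = 0.0239), passed 0.05 and was named after its value was seen. The 8 genes of glutamine, glycine and aspartate supply had 0 calls and a median of −0.30, with 6 at an unadjusted p under 0.05 and 1 called by DESeq2. That DESeq2 call was GLUL, which was higher with NFE2L2 siRNA (0.46, edgeR adjusted p = 0.0210). Purine salvage, the 7 genes of the bypass that reuses bases and nucleosides, had 0 calls with edgeR, 0 with DESeq2 and 2 at an unadjusted p under 0.05, with a median of −0.20. Interconversion and breakdown, with 9 genes tested, had 0 calls, 3 at an unadjusted p under 0.05, 1 call by DESeq2 and a median of 0.03. The DESeq2 call there was NT5E, which was higher (0.71, edgeR adjusted p = 0.0154). GLUL and NT5E also passed 0.05 with edgeR and were named after their values were seen. Both were higher in all NFE2L2 libraries than in all controls, as were 11.9% of all tested genes. Of 9 genes for phosphorylation and reduction of nucleotides, 8 were below 0, with a median of −0.35 and 6 at an unadjusted p under 0.05, and edgeR and DESeq2 each called 1. This was RRM2, the ribonucleotide reductase subunit tied to DNA replication, which fell (−1.02, SE 0.175, adjusted p = 0.00769). Its call was lost in 6 of the 7 fits that left out a library, all but the one without NFE2L2 duplex 2, with adjusted p up to 0.0348, and with either control duplex alone (0.0734 and 0.0814).

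**Figure D4:**
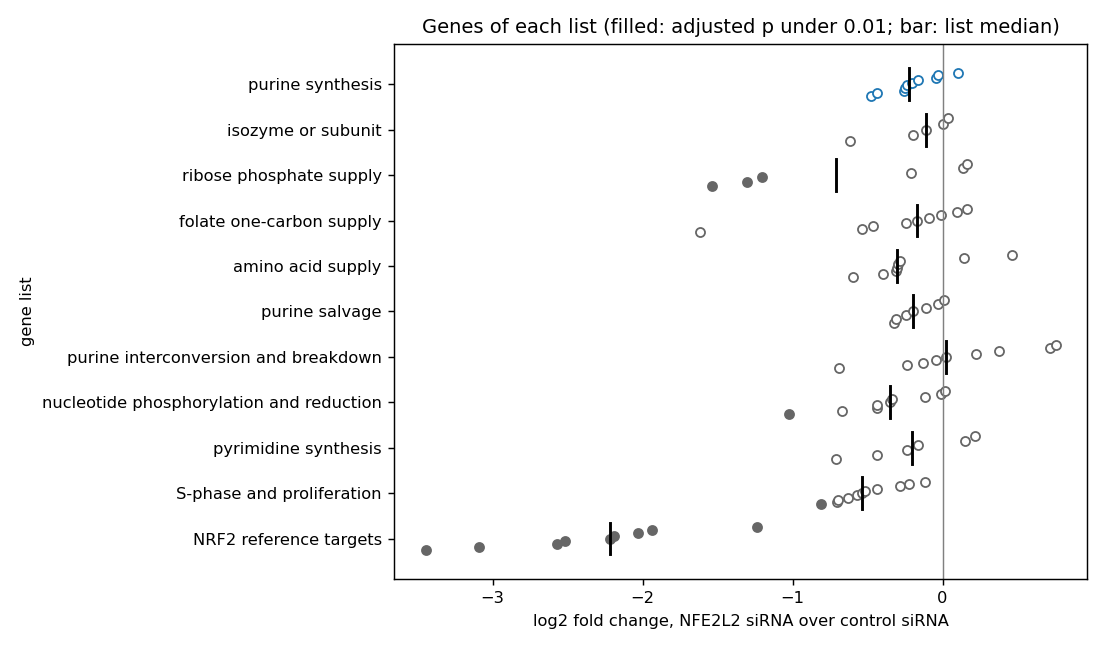
Each point is a gene, the horizontal axis its log2 fold change of NFE2L2 siRNA over control siRNA, the vertical axis its list, and the black bar the list median. The median is −0.22 for the purine genes, −0.71 for ribose phosphate supply and −2.22 for the NRF2 reference targets.

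The 11 listed S-phase and proliferation genes all had a log2 fold change below 0, with a median of −0.54. Of these, edgeR called 1 (2.76% of all genes) and DESeq2 3 (7.70%), with 5 at an unadjusted edgeR p under 0.05 (25.0%). The gene that edgeR called was MCM5, a subunit of the replicative helicase, which fell (−0.81, adjusted p = 0.00272). That call was lost in 4 of the 7 fits that left out a library (NFE2L2 duplex 3, or control library 2, 3 or 4), with adjusted p up to 0.0149, and with either control duplex alone (0.0373 and 0.0555). With NFE2L2 duplexes 1, 2 and 3, 11, 3 and 10 of the genes were below the lowest control, the 3 being PCNA, MCM3 and MCM5. Their summed level was 1234, 2281 and 1594 CPM with NFE2L2 duplexes 1, 2 and 3 against 2190 to 2277 CPM in the controls and 2409 CPM in the mock library. The duplex 2 sum depended on the most abundant genes. Without TOP2A, a topoisomerase, the sums were 796.9, 1452.9 and 1005.0 CPM against 1493.9 to 1621.7 CPM in the controls. The duplex 2 sum was then below the controls, but it still held PCNA (428.1 CPM against 470.8 to 582.8 CPM). With duplex 2, MCM2, MCM4, MCM6, TOP2A, CCNE2 and E2F1 were above the highest control, and MCM7 and MKI67 were within the control range. The list median of the log2 ratio to the control mean was −1.06, 0.10 and −0.55 with duplexes 1, 2 and 3. Of the 4 purine genes separated from the controls, PAICS was at 170.2 CPM in the duplex 2 library, as low as with the other duplexes. ADSL was at 86.2 CPM there. PFAS (111.9 CPM) and GMPS (144.1 CPM) were nearer to the controls with duplex 2 than with duplexes 1 and 3. PRPS1 (69.4 CPM), PPAT (67.0 CPM), GART (114.8 CPM) and ADSS (78.0 CPM) were also below the lowest control in that library. ATIC and IMPDH2 lay within the control range there. Of 4 listed regulators, edgeR called 2 (2.76% of all genes), both lower: NFE2L2 and KEAP1 (−0.83, adjusted p = 0.00922). With either control duplex alone that list had 0 calls. MYC (ENSG00000136997.10), named after its value was seen, had 136.3, 129.9 and 121.9 CPM against 159.0 to 176.6 CPM (log2 fold change −0.39, adjusted p = 0.0241). An adjusted p under 0.05 was reached by 8.17% of all genes. ATF4, the other regulator, had −0.30 (adjusted p = 0.0777). All 4 were lower in every NFE2L2 library than in all controls, a separation seen for 11.4% of all genes. Of 8 interferon response genes edgeR called 0 and DESeq2 1, with 5 at an unadjusted p under 0.05 and a median of 0.50. Of 6 leukocyte, endothelial and fibroblast markers matched, 2 had enough reads to test, the collagens COL1A1 and COL3A1, and COL1A1 rose (log2 fold change 1.497, adjusted p = 0.000493), with adjusted p of 0.0222 and 0.0218 against control duplex 1 or 2 alone. The summed level of the matched markers was 11.5 to 17.02 CPM against 5.12 to 6.34 CPM in the controls, and COL1A2 had 0 to 3 reads. The part of these gene groups in the levels of the purine genes was not tested.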

How the data were processed

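Strand-specific total RNA libraries of A549 cells were analysed. The authors aligned reads to hg19 and deposited raw counts per GENCODE v19 gene, unnormalized. The submitters' processing notes name HISAT 0.1.6 and HTSeq 0.6.0. Unassigned classes (genes held 60.3% to 65.6% of all entries) were left out.

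All genes that reached 10 reads in any of the 7 compared libraries entered the edgeR test (version 4.0.16, R 4.3.3; TMM, glmQLFit, glmQLFTest, prior count 0.125, Benjamini-Hochberg, threshold 0.01). SE was the size of the log2 fold change divided by the root of its F statistic. The mock library entered no test. Positions and lengths came from GENCODE v44 mapped to GRCh37, which held 55538 of 60291 identifiers, and ADSS and ADSSL1 were matched through RefSeq synonyms. Motifs were read from RefSeq promoter windows (GRCh38.p14). None of the 28 pairs of libraries held identical counts. The fits were tested on simulated data.

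The purine genes and all lists were chosen with earlier results of these data known, and some genes of these pathways are not reported here. Named genes were the purine genes, isozymes, NFE2L2 and NRF2 reference targets, up to 3 called genes with the lowest adjusted p per other list, coding genes starting within 1000 bp on the other strand, and the 3 genes nearest to PAICS in profile, except where the text says otherwise and for marker genes. Alternatives were DESeq2 1.42.0, limma-voom (limma 3.58.1), other scalings, filters, thresholds and controls, a robust fit, and each library left out in turn.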

Additional observations from a re-analysis of the deposited data

Results flagged for a closer look

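PGD, 6-phosphogluconate dehydrogenase, was at 1039 CPM in control siRNA library 1, while the other 3 control libraries lay between 922.5 and 931 CPM. The gap to the nearest of them made up 0.927 of the whole range of the 4 libraries, which set this library apart by Dixon's criterion. The same criterion was applied to 35 genes or gene ratios in the control libraries, of which chance alone sets apart about 1 in 20, or 1.75, and it set apart 1, none of the 10 purine genes.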

How the results depend on the processing

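No paired analysis was possible because the replicate numbers name different siRNA duplexes in the NFE2L2 group and repeat transfections in the control group. The number of purine genes called, 0 as reported, became 1 with DESeq2, with genes admitted at 1 read, with the mock library added to the controls and at a threshold of 0.05. It was 2 with DESeq2 at 0.05, 1 at 0.05 without NFE2L2 duplex 1 (both chosen after seeing the data), and 0 to 1 as each library was left out. Their median log2 fold change (−0.22) was −0.30 against control duplex 1 alone and −0.14 against control duplex 2 alone, and −0.28 to −0.16 with libraries left out. Genes called in the 7 metabolic lists (4 of 54) numbered 8 with DESeq2, 7 with the mock library, 9 at 0.05, 2 with control duplex 2 alone, 2 when each control duplex was summed to 1 library, and 3 to 6 with libraries left out. Over all genes (491) the corresponding numbers were 1319, 772, 1456, 59, 78 and 163 to 915, with 1019 at 1 read and 120 with control duplex 1 alone, where 915 was without NFE2L2 duplex 2 and 163 without control library 2. Between the control duplexes, 0 genes became 566 with the control libraries alone and 10 at 0.05.

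Signs turned for genes near 0. With libraries left out, GART ran from −0.1483 to 0.0082 (without NFE2L2 duplex 3), ADSS from −0.101 to 0.0593, PRPS2 from −0.1124 to 0.149 and PRPSAP1 from −0.0463 to 0.0703. ATIC was −0.0069 against control duplex 2. ADSS was 0.003 with library size alone, 0.0476 against control duplex 2 and 0.0071 with the mock library added. PRPS2 was −0.0047 with DESeq2 and with its size factors, −0.0144 with limma-voom, −0.0076 at 1 read, −0.0562 against control duplex 1 and −0.0156 with the mock library. The causes were not tested. The gene pairs kept the sign of their differences, with PPAT to PAICS at 0.11 to 0.32, PRPS2 to PRPS1 at 0.0586 to 0.4368 and IMPDH1 to IMPDH2 at 0.0748 to 0.214 as libraries were left out. With at least 1177 reads in a library, depth did not limit which purine genes could be tested, and the 3 and 4 transfections limit what a missed threshold says.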

Other observations

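Pyrimidine synthesis, which uses PRPP from the same synthetases, had 6 genes tested and 0 called with edgeR, with a median log2 fold change of −0.20 and 2 at an unadjusted p under 0.05. DESeq2 called 1. CAD, which carries the first steps of that pathway, was at 153.7, 140.0 and 148.0 CPM with NFE2L2 siRNA and at 159.0 to 173.5 CPM in the controls (log2 fold change −0.17, SE 0.0826, adjusted p = 0.245). DHODH, the dihydroorotate dehydrogenase of mitochondria, was at 11.5, 10.6 and 10.7 CPM against 13.7 to 16.1 CPM (log2 fold change −0.44, SE 0.107, adjusted p = 0.0363). CTPS1, a CTP synthetase, was at 203.8, 265.9 and 218.5 CPM against 155.0 to 233.1 CPM (log2 fold change 0.22, SE 0.147, adjusted p = 0.396). These 3 were named after their values were seen. For CAD and DHODH all NFE2L2 libraries were below all controls, a separation seen for 11.4% of all tested genes, and for CTPS1 the groups overlapped.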
